A study of Mus musculus with 10 samples.

Results

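The Hoxc cluster holds the 9 genes Hoxc13, Hoxc12, Hoxc11, Hoxc10, Hoxc9, Hoxc8, Hoxc6, Hoxc5 and Hoxc4, which lie in this order on the plus strand of mouse chromosome 15. All 9 were found by name among 22350 protein-coding genes of the mm9 (NCBIM37) annotation. They were listed by name and not by a measured value, but earlier results of these data were known when they were chosen. Their gene bodies run from chr15:102751534 to 102867274. For each gene, the peaks of 6 ChIP-seq lists were taken over the gene body and 10 kb on either side, and for the cluster as a whole over a window of 135741 bp that reaches 10 kb beyond Hoxc13 and Hoxc4. 4 lists came from J1 ESCs, a mouse embryonic stem cell line, here grown on feeder cells in 15% serum with 1000 U/ml LIF. They are for Ring1b, Cbx2, Ezh2 and H3K27me3. The other 2, for Ring1b and H3K27me3, came from neural stem cells (NSCs) differentiated in culture from J1 ESCs and kept in EGF and FGF at 10 ng/ml each, so both cell types share 1 parental line. No knockout, drug or transgene is named for any of these samples.

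Hox genes encode homeodomain transcription factors that give cells their position along the head-to-tail axis, and their order in a cluster follows the order of the body regions in which they are active. Outside those regions Polycomb group (PcG) proteins keep them silent. PRC1, with the subunits Ring1b and Cbx2, compacts chromatin and ubiquitylates histone H2A, while PRC2, through its methyltransferase Ezh2, trimethylates lysine 27 of histone H3 to give H3K27me3. In pluripotent cells and in most neural progenitors of the forebrain the Hox clusters are among the best known PcG targets.

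Each list came from 1 library, so no value below has a replicate check and no test was made. The lists held between 1033 (ESC Cbx2) and 2335 (ESC Ring1b) peaks, with median widths from 1400 to 2200 bp. They give a start and an end for each peak without a height, so that depth is unknown and a missing peak means only that the signal did not pass the threshold used. Summed over all chromosomes, the NSC list covered 0.456 times as many bases as the ESC list for Ring1b and 0.798 times as many for H3K27me3. These lists contain no RNA. Of 8 ESC marker genes, such as Pou5f1 and Nanog, 0 had the start site in a peak of any ESC list, and 1 (Fgf4) had it in an NSC H3K27me3 peak. Of 7 NSC markers found in the annotation, 5 had the start site in an ESC Ring1b peak and 0 in an NSC peak of either list.

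To show what the start sites look like in sequence, the promoter of Hoxc5, a gene whose start-site state differed between ESCs and NSCs, is given with that of Hoxc12, the first gene in the cluster whose state did not. Each holds the 250 bases before the start site and the first 50 bases from it, 5′ to 3′ on the plus strand of mm9, with every CG dinucleotide (CpG) in capitals. They lie at chr15:102766938-102767237 (Hoxc12) and chr15:102843996-102844295 (Hoxc5).
Hoxc12 promoter: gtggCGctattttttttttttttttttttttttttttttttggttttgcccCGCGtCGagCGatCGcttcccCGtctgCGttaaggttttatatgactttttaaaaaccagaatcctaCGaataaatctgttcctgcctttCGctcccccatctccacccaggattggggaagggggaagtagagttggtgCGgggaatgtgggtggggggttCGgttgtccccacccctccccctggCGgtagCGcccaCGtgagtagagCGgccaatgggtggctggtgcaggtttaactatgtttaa
Hoxc5 promoter: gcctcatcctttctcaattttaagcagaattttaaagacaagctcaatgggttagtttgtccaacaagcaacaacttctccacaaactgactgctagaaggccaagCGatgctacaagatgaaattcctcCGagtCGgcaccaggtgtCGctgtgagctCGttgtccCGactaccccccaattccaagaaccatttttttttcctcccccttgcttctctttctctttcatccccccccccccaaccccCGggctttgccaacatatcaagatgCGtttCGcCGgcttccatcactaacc

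The Hoxc5 promoter held 10 CpGs at 49.3% GC, and that of Hoxc12 held 16. Among all 9 genes the count ran from 6 in Hoxc4 to 27 in Hoxc8, with a median of 17.0. The motif CG, which reads the same on both strands, occurs in 95.1% of all 22345 promoters of this length that were read, with a median of 11 per promoter, and the 1571 promoters inside ESC Ring1b peaks had a median of 23.0. Corrected for base composition, the ratio of observed to expected CpGs had a median of 0.797 over the Hoxc promoters, against 0.534 over all promoters and 0.758 over those in ESC Ring1b peaks. Hoxc11 had the highest ratio (0.984) and Hoxc4 the lowest (0.406). The median GC content of the Hoxc promoters was 50.3%, against 55.3% over all promoters. Over 500 bases on either side of the start site the order of GC content turned, with 55.5% against 54.8%, and the CpG ratio was 0.651 against 0.549.

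In ESCs, Ring1b covered most of the cluster in long, nearly unbroken domains. A peak of 35400 bp (chr15:102782401-102817800) took in the whole of Hoxc11, Hoxc10 and Hoxc9, and a second of 29000 bp (chr15:102819201-102848200) the whole of Hoxc8, Hoxc6 and Hoxc5, with 1400 bp between them. Together these span the genes of the lumbar to cervical levels of the axis. At the 5′ end Hoxc12 lay in a Ring1b peak of 12000 bp and the Hoxc13 start site in a peak of 4000 bp. In all, 8 Ring1b peaks covered 92.3 kb, or 68.0%, of the window. The median width of these 8 peaks was 4500 bp, against 2200 bp over the whole ESC Ring1b list.

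Cbx2, the PRC1 subunit that binds H3K27me3 through its chromodomain, covered 44.7% of the window in 9 peaks, the widest of 13400 bp over Hoxc9. Ezh2 covered 27.4% in 16 peaks of at most 5000 bp, and ESC H3K27me3 covered 29.5%, also in 16 peaks, of at most 7400 bp. Cbx2 and Ezh2 peaks lay wholly within Ring1b peaks (100% of their bases), and 97.5% of the ESC H3K27me3 bases did. For Ezh2 and the mark it deposits, 61.8% of the Ezh2 bases lay under H3K27me3 peaks and 57.5% of the H3K27me3 bases under Ezh2 peaks. These shares cannot be set directly against those under Ring1b, which covered 68.0% of the window, against 29.5% for H3K27me3. All 4 ESC lists overlapped on 21800 bp in 12 stretches, 16.1% of the window, and an equal number of bases lay under Ring1b and under none of the other 3.

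**Figure D1:**
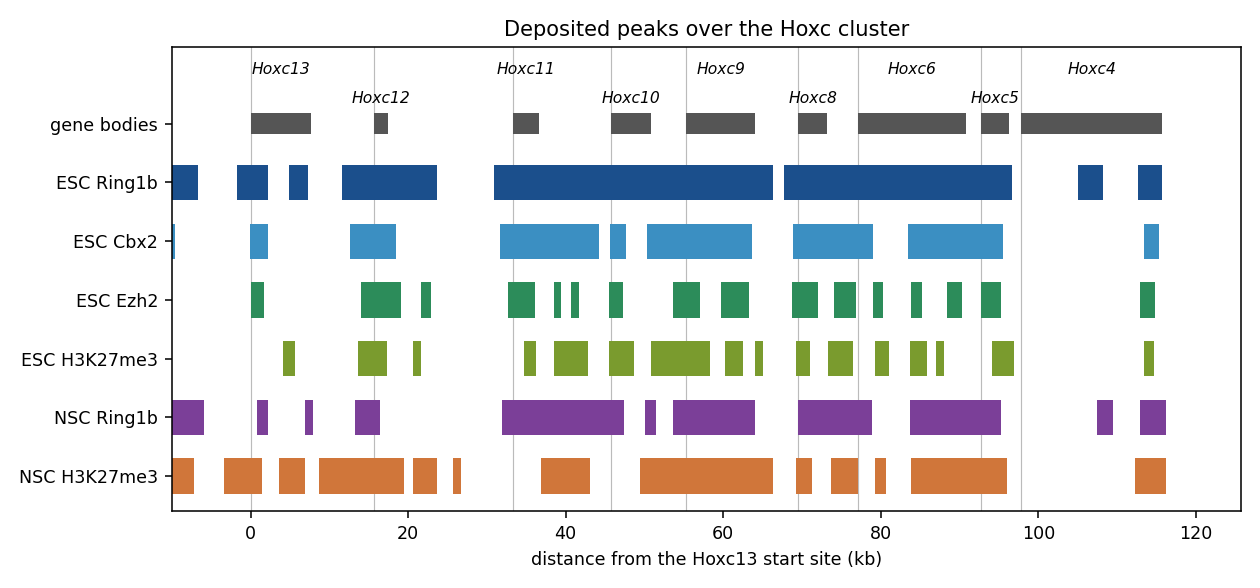
Peaks of the 6 lists (coloured bars, 1 row per list) over the Hoxc cluster, with gene bodies in grey and start sites as vertical lines, against distance from the Hoxc13 start site in kb; peaks that reach past the window are clipped. ESC Ring1b forms 2 long domains over Hoxc11 to Hoxc5, Ezh2 and ESC H3K27me3 form 16 short peaks each, and NSC H3K27me3 fills much of the 5′ end around Hoxc13 and Hoxc12.

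Gene by gene, the ESC lists fell into a pattern that put Hoxc12, Hoxc10, Hoxc9 and Hoxc8 apart from the rest. These 4 had the start site in a peak of all 4 ESC lists, as did 0.752% of all protein-coding genes. Hoxc12 and Hoxc13 act in hair follicles, Hoxc10 in lumbar motor neurons, Hoxc9 in thoracic and Hoxc8 in brachial ones. In ESCs, 8 of 9 start sites lay in a Ring1b peak, against 7.03% of all genes, and 8 of 9 in a Cbx2 peak, against 1.15%. The exception in both was Hoxc4. Ezh2 peaks held 6 of 9 start sites (2.56% of all genes), and H3K27me3 peaks held 4 of 9 (4.31%).

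The misses differed in distance. The Hoxc13 start site was 67 bp from an Ezh2 peak, within a single 200 bp step of the peak calling, but 4067 bp from an H3K27me3 peak. That of Hoxc6, a gene of brachial motor neurons, was 288 bp from an Ezh2 and 688 bp from an H3K27me3 peak. Hoxc11, which acts in the hindlimb, and Hoxc5, which acts in cervical motor neurons, had Ezh2 at the start site and the nearest H3K27me3 peak 1343 and 1355 bp away, respectively. That peak lay inside the gene body in Hoxc11 and ran 540 bp past the end of the gene in Hoxc5, and ESC H3K27me3 covered 48.8% of the Hoxc11 body and 62.5% of the Hoxc5 body.

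In NSCs, Ring1b was still found at most start sites, and H3K27me3 at some that it did not hold in ESCs. NSC Ring1b peaks held 7 of 9 start sites (1.74% of all genes), and NSC H3K27me3 peaks held 5 of 9 (1.77%), those of Hoxc13, Hoxc12, Hoxc9, Hoxc8 and Hoxc5. For Ring1b, 7 start sites lay in a peak of both cell types (1.18% of all genes), 1 in ESCs alone (Hoxc13, 5.85%) and 0 in NSCs alone (0.564%). For H3K27me3, 3 lay in a peak of both cell types (1.10%), 1 in ESCs alone (Hoxc10, 3.22%) and 2 in NSCs alone (Hoxc13 and Hoxc5, 0.671%). Of the 8 genes with Ring1b at the start site in ESCs, 7 kept it in NSCs, against 16.7% of the 1571 genes with such a start site. For H3K27me3 it was 3 of 4, against 25.4% of 964 genes.

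Hoxc13 was the gene whose start site changed in both lists. Its Ring1b peak of 4000 bp over the start site in ESCs was replaced in NSCs by one of 1400 bp that begins 867 bp downstream, and an H3K27me3 peak of 4800 bp (chr15:102748201-102753000) now held the start site. Hoxc10 changed the other way for H3K27me3. A peak of 3200 bp held its start site in ESCs, and in NSCs the nearest was 2627 bp away, although Ring1b remained. At Hoxc5 an NSC H3K27me3 peak of 12200 bp (chr15:102835401-102847600) covered the start site. In NSCs, Hoxc12, Hoxc9, Hoxc8 and Hoxc5 had both Ring1b and H3K27me3 at the start site, as did 0.626% of all genes. Hoxc12, Hoxc9 and Hoxc8 were in a peak of all 6 lists (0.309%).

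**Figure D2:**
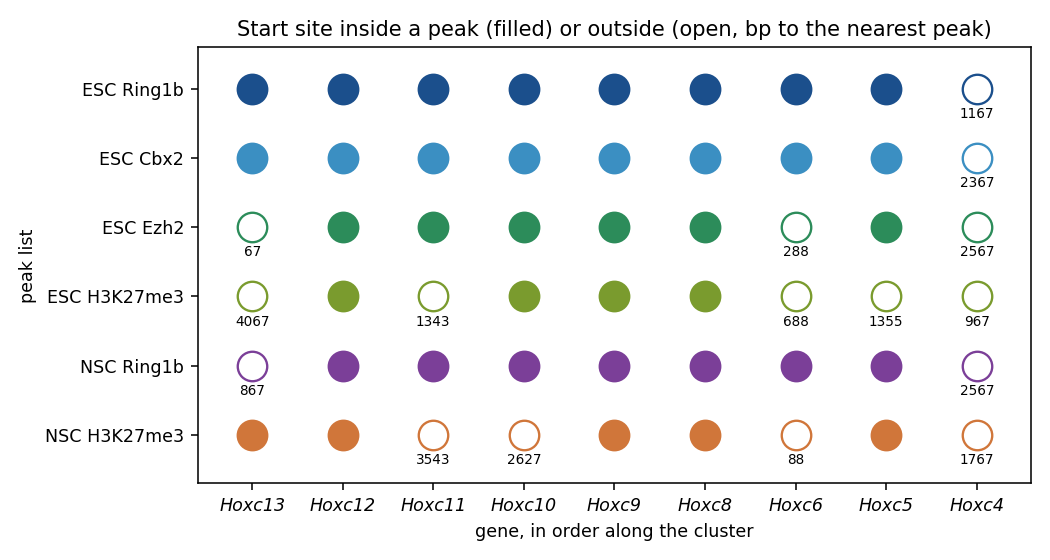
Start-site state of the 9 Hoxc genes (columns, in order along the cluster) in the 6 peak lists (rows); filled circles mark a start site inside a peak and open circles a start site outside, with the distance to the nearest peak in bp. Hoxc12, Hoxc9 and Hoxc8 are filled in every row, Hoxc4 is open in every row, and misses range from 67 to 4067 bp.

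The covered share of each gene with its flanks moved in opposite directions for the 2 targets. Ring1b covered less in NSCs than in ESCs at 9 of 9 genes, while H3K27me3 covered more at 9 of 9. By gene body alone Ring1b covered less at 6 genes, with the other 3 at 100% in both cell types, and H3K27me3 covered more at 7 and less at 2, Hoxc11 and Hoxc10. With 5 kb flanks H3K27me3 again covered more at 7, and Hoxc10 went from 68.2% to 57.6%. With 10 kb flanks, of all protein-coding genes 10.8% had less Ring1b cover, 3.06% had more H3K27me3 cover and 1.29% had both. The first is usual among bound genes, since 93.9% of the genes with Ring1b at the start site in ESCs had less in NSCs. The second was less common, as 14.0% of the genes with H3K27me3 at the start site in ESCs had more of it in NSCs. All 4 Hoxc genes of that kind did. Only 25.4% of those genes kept H3K27me3 at the start site in NSCs, so the 14.0% is taken largely over genes that lost it. Hoxc10, among the 4 Hoxc genes, also lost it there. The flanks of neighbouring Hoxc genes overlap, so these 9 values are not independent, and the counts over whole lists also differ between cell types. The part of list size in these differences was not tested.

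With 10 kb flanks, H3K27me3 differed most at the 5′ end. At Hoxc13, H3K27me3 covered 18.8% of the gene and its flanks in ESCs and 71.9% in NSCs, whereas Ring1b went from 56.7% to 34.9%. At Hoxc12, H3K27me3 went from 21.1% to 73.3% and Ring1b from 62.3% to 19.2%. The Hoxc12 body alone was already covered by H3K27me3 to 87.0% in ESCs and was at 100% in NSCs, so most of this difference lay in its flanks. In this region the 7942 bp between the 2 genes were covered to 25.0% by ESC and to 88.0% by NSC H3K27me3. NSC H3K27me3 also reached 62.0% of the 10 kb upstream of Hoxc13, where the ESC list had 0%.

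At Hoxc11 and Hoxc10, in the middle of the cluster, the differences in H3K27me3 were small with 10 kb flanks but not over the gene bodies. Hoxc11 went from 30.7% to 32.4% and Hoxc10 from 64.1% to 69.8%, and their gene bodies alone went the other way, from 48.8% to 0% in Hoxc11 and from 58.3% to 26.0% in Hoxc10. Their higher cover with flanks thus lay outside their own bodies. In the interval between these genes H3K27me3 went from 50.9% to 68.2%. Ring1b covered the whole of this interval in both cell types, and the whole body of Hoxc11 in both. For Hoxc10, Ring1b went from 100% to 80.9% with flanks and from 100% to 49.0% over the body.

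At Hoxc9, H3K27me3 went from 57.0% to 66.7% and Ring1b from 95.1% to 64.4%, and a single NSC H3K27me3 peak of 16800 bp (chr15:102801001-102817800) covered the whole gene. Hoxc8 went from 42.3% to 57.3% for H3K27me3 and from 94.1% to 59.0% for Ring1b. Ring1b covered the bodies of both genes in full in both cell types, so their lower Ring1b shares lay outside their own bodies. Their flanks take in parts of the Hoxc10 and Hoxc6 bodies, where Ring1b went from 100% to 49.0% and from 100% to 64.8%. Between Hoxc9 and Hoxc8, Ring1b covered 74.6% in ESCs and 2.21% in NSCs. In place of the long ESC domains, NSCs had Ring1b peaks of 15600, 10400, 9400 and 11600 bp, over the start sites of Hoxc11 and Hoxc10, of Hoxc9, of Hoxc8 and Hoxc6, and of Hoxc5, and a peak of 1400 bp between Hoxc10 and Hoxc9 that held no Hoxc start site.

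Toward the 3′ end H3K27me3 was again clearly wider in NSCs. Hoxc6 went from 38.1% to 56.5% for H3K27me3 and from 86.2% to 62.5% for Ring1b, and Hoxc5 from 25.4% to 51.7% and from 64.4% to 49.1%. Between these genes, H3K27me3 covered 0% of 1933 bp in ESCs and 100% in NSCs, while Ring1b covered 100% in both. Hoxc4 had the lowest share of the cluster in every list but NSC Ring1b. In ESCs it was 39.7% for Ring1b, 24.9% for Cbx2, 16.9% for Ezh2 and 11.2% for H3K27me3. In NSCs its H3K27me3 share was 32.3%, close to the 32.4% of Hoxc11. Its NSC Ring1b share was 33.9%, above the 19.2% of Hoxc12.

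**Figure D3:**
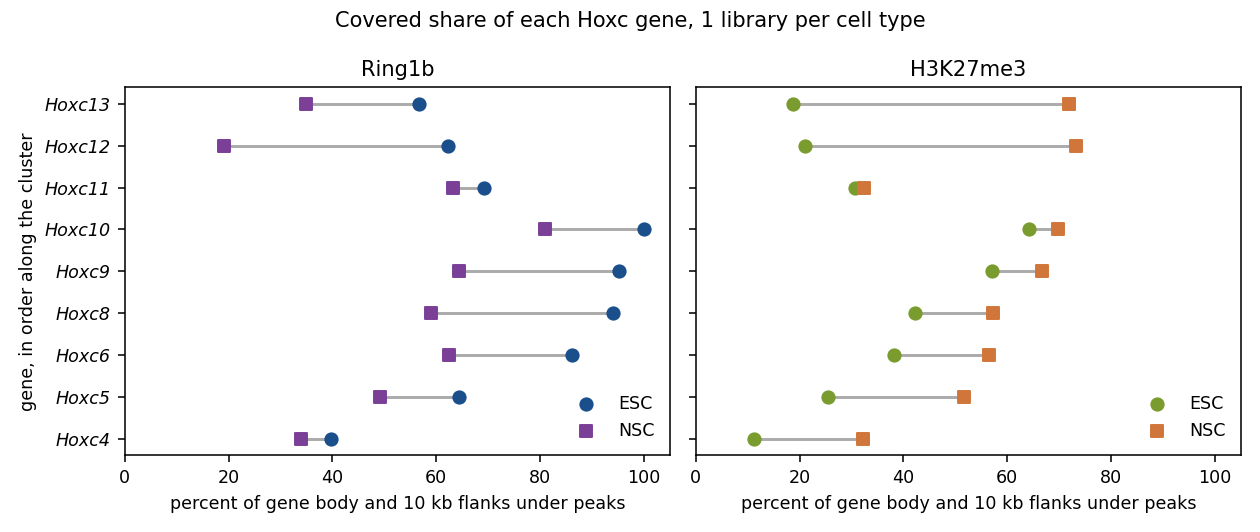
Percent of each Hoxc gene body with 10 kb on either side that lay under Ring1b peaks (left) and H3K27me3 peaks (right), with circles for ESCs and squares for NSCs, from 1 library each. The squares lie to the left of the circles for Ring1b and to the right for H3K27me3 at all 9 genes, by 53.1 percentage points at Hoxc13 and 1.74 at Hoxc11 for H3K27me3.

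Over the cluster window, NSC Ring1b peaks covered 63.5 kb (46.8%) in 11 peaks, and NSC H3K27me3 peaks 71.7 kb (52.8%) in 13. NSC Ring1b stayed almost wholly inside the ESC domains, since 95% of its bases lay under ESC Ring1b, and 65.3% of the ESC bases lay under NSC Ring1b. NSC H3K27me3 peaks took in most of the ESC bases and others besides. Of the ESC bases 83.5% lay under NSC H3K27me3, and of the NSC bases 46.6% lay under ESC H3K27me3. The gap depends in part on how peaks are joined. With peaks within 3 kb merged, H3K27me3 covered 43.8% of the window in ESCs and 63.7% in NSCs. In bases, 38267 bp carried H3K27me3 in NSCs alone and 6600 bp in ESCs alone, whereas for Ring1b it was 3200 bp in NSCs alone and 32000 bp in ESCs alone. NSC Ring1b also resembled ESC Cbx2, with 87.8% of the Cbx2 bases under NSC Ring1b and 83.9% of the NSC Ring1b bases under Cbx2. Within NSCs, 70.4% of the Ring1b bases lay under H3K27me3 and 62.3% of the H3K27me3 bases under Ring1b.

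Hoxc4, which acts in the cervical and upper thoracic region, was the only member with its start site in no list. The distances ran from 967 bp (ESC H3K27me3) to 2567 bp (Ezh2 and NSC Ring1b). This start site, at chr15:102849367, lies in a stretch of 8200 bp without a peak in any list (chr15:102848401-102856600), the longest such stretch within the span of the 9 genes. The result turns on the transcript. A second Hoxc4 transcript, with the longer coding sequence (792 bp), starts at chr15:102864826, which lay in ESC Ring1b, Ezh2, NSC Ring1b and NSC H3K27me3 peaks and 175 bp from both a Cbx2 and an ESC H3K27me3 peak. With the start of the longest coding transcript, 9 of 9 genes had the start site in an ESC Ring1b peak and 8 of 9 in an NSC Ring1b peak. The counts were then 8 for Cbx2, 7 for Ezh2, 4 for ESC H3K27me3 and 7 for NSC H3K27me3. Hoxc6 and Hoxc4 thus joined Hoxc13 and Hoxc5 in having H3K27me3 at the start site in NSCs alone. The shares of all genes under this choice of start are not given here.

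Hoxc6 has 3 annotated coding starts. The most upstream, used above, lay in ESC Ring1b, Cbx2 and NSC Ring1b peaks and 88 bp from NSC H3K27me3. The second, at chr15:102830960, lay in ESC Ring1b, Ezh2 and both H3K27me3 lists but in neither Cbx2 nor NSC Ring1b. The third, at chr15:102839910, belongs to the transcript with the longest coding sequence (705 bp) and lay in ESC Ring1b, Cbx2 and both NSC lists. Both starts of Hoxc9 lay in a peak of all 6 lists.

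The cluster's 3′ border was alike in every list. The outermost peak edge lay within 1.07 kb of the Hoxc4 end in all 6, and the 10 kb beyond were free of peaks apart from 5.26% under each NSC list. The next peak downstream was 21.5 kb away for ESC Ring1b, 22.5 kb for NSC Ring1b and 132 kb for NSC H3K27me3. At the 5′ border the lists differed. Ezh2 and ESC H3K27me3 began 67 bp and 4.07 kb inside Hoxc13, while ESC Ring1b, Cbx2, NSC Ring1b and NSC H3K27me3 reached 11.7, 10.7, 11.5 and 14.1 kb upstream of it.

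Of the 3 nearest protein-coding genes on each side, Atp5g2, Calcoco1, Smug1, Cbx5 and Hnrnpa1 had the start site in no list. The remaining one, Gm17649, lies 282 bp upstream of Hoxc13 on the opposite strand and was in ESC Ring1b and NSC H3K27me3 peaks, the same peaks that held Hoxc13.

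The cluster also encodes non-coding RNAs. Hotair, a long non-coding RNA between Hoxc12 and Hoxc11 (Gm16258 in the annotation, minus strand, chr15:102774493-102778851), had its start site in no list. Its body was covered to 16.2% by ESC Ring1b and to 39.2% by NSC H3K27me3. A peak of 1000 bp within it (chr15:102777201-102778200) was the one NSC H3K27me3 peak of the window that overlapped no other list. Gm20398, a transcript that runs from Hoxc10 to Hoxc5, had its start site in every list but NSC H3K27me3, as Hoxc10 did.

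2 microRNA genes lie in the cluster, and their mature products are shown as the short RNAs that the DNA under these peaks encodes. Mir196a-2 lies between Hoxc10 and Hoxc9 and miR-196 is known to repress Hoxb8, and Mir615 lies inside Hoxc5. The sequences are from RefSeq (GRCm38.p6), 5′ to 3′, with the seed (bases 2 to 8) in capitals, and each was matched without a mismatch to 1 place in the mm9 cluster.
mmu-miR-196a-5p: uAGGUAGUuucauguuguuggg
mmu-miR-196a-2-3p: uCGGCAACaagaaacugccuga
mmu-miR-615-5p: gGGGGUCCccggugcucggauc
mmu-miR-615-3p: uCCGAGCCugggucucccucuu

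In mm9 the 2 arms of Mir196a-2 lie at chr15:102803796-102803817 and chr15:102803832-102803853, and those of Mir615 at chr15:102845357-102845378 and chr15:102845400-102845421, all on the plus strand. The 4 seeds differ from each other. Both arms of Mir196a-2 lay in ESC Ring1b, Cbx2, ESC H3K27me3 and NSC H3K27me3 peaks and outside Ezh2 and NSC Ring1b peaks, with NSC Ring1b 772 bp from the start of the gene, whereas the start sites of Hoxc10 and Hoxc9 on either side lay in both of the latter. Both arms of Mir615 lay in every list except ESC H3K27me3, whose nearest peak was 260 bp from the start of the gene, and so in the same lists as the Hoxc5 start site.

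Within the cluster, the bases under each list held more CpGs per kb than those outside it. Bases under Ezh2 held 37.8 per kb and bases outside it 13.3, and the 21800 bp under all 4 ESC lists held 35.6. Bases under ESC Ring1b peaks of any width held 24.3 per kb, against 10.9 outside. Bases with Ring1b in both cell types held 26.9 per kb, those with Ring1b in ESCs alone 19.5 and those in NSCs alone 6.88. For H3K27me3 the corresponding values were close to each other, with 25.6 in both, 26.1 in ESCs alone and 23.7 in NSCs alone, and 13.6 in neither. The 32874 bp under no list held 10.4.

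**Figure D4:**
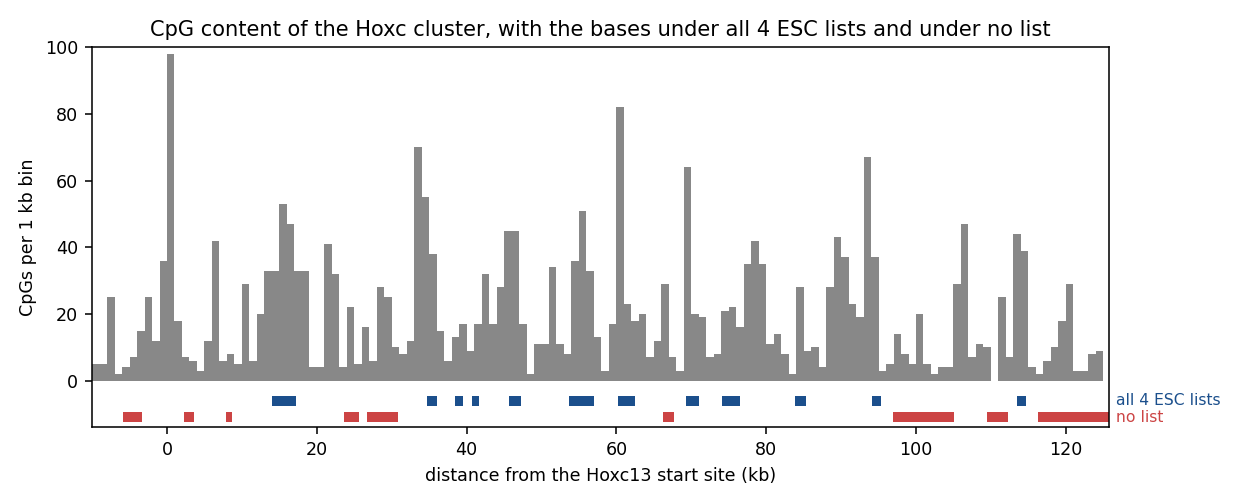
CpGs per 1 kb bin (grey bars) against distance from the Hoxc13 start site in kb, with the stretches under all 4 ESC lists (blue) and under no list (red) below the axis. The 12 blue stretches hold 35.6 CpGs per kb and the 9 red ones 10.4; the highest bin, with 98 CpGs, is at Hoxc13, where no blue stretch lies.

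Exon bases of the Hoxc genes were covered to a higher share than intron bases, to a degree that differed by list. Of the exon bases of the 9 genes, ESC Ring1b covered 96.9%, against 68.8% of intron and 59.2% of intergenic bases in the window. For Ezh2 these shares were 58.6%, 28.3% and 17.9%. ESC H3K27me3 was more even, with 36.4%, 34.4% and 24.3%. NSC H3K27me3 covered 68.9% of exon, 43.1% of intron and 54.4% of intergenic bases, and NSC Ring1b 81.1%, 46.5% and 37.1%.

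The cover of Hoxc genes was above that of most bound genes. The median over the 9 genes with flanks was 69.1% for ESC Ring1b, 58.2% for Cbx2, 28.4% for Ezh2, 30.7% for ESC H3K27me3, 59.0% for NSC Ring1b and 57.3% for NSC H3K27me3. Over all genes with the start site in a peak of the same list it was 4.87%, 18.5%, 7.04%, 5.20%, 5.26% and 8.94%, in the same order. Of all protein-coding genes, between 0.412% (NSC H3K27me3) and 1.74% (ESC H3K27me3) had a share at least as high as the lowest Hoxc gene. High cover was not particular to Hoxc. For ESC Ring1b the median was 86.9% over the Hoxa, 88.7% over the Hoxb and 87.6% over the Hoxd genes. For NSC Ring1b it was 5.40%, 52.8% and 79.4%, in the same order. Flanks of genes in a cluster also take in peaks of their neighbours, and a peak of a given width makes a smaller share of a longer gene. Neither was corrected for.

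By covered share of the whole window, Hoxc ranked 2 among the 4 Hox clusters in ESC Ring1b, Cbx2, NSC Ring1b and NSC H3K27me3. It ranked 3 in Ezh2 and ESC H3K27me3. For ESC Ring1b the share was 68.0%, with 76.8% in Hoxa, 66.6% in Hoxd and 52.9% in Hoxb. The order depends on the measure. By the median over genes with 10 kb flanks, Hoxc was the lowest in ESC Ring1b (69.1%) and in Ezh2. For Ezh2 that median was 28.4%, with 52.3% in Hoxa, 30.4% in Hoxb and 40.7% in Hoxd. In both NSC lists Hoxc was below Hoxd alone by either measure. It differed most from Hoxa. In Hoxa, NSC peaks covered fewer bases than ESC peaks for both targets (ratio 0.488 for Ring1b and 0.593 for H3K27me3), while in Hoxc the ratio was 0.688 for Ring1b and 1.79 for H3K27me3. Hoxd (0.764 and 1.61) and Hoxb (0.546 and 1.48) had the same order as Hoxc. These are differences between single libraries without a test.

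**Figure D5:**
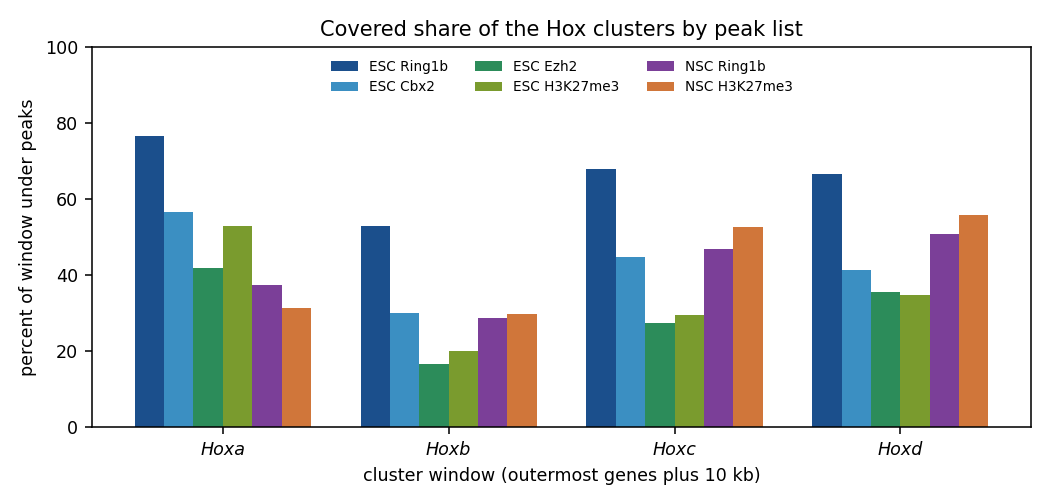
Percent of each Hox cluster window (outermost genes and 10 kb on either side) under the peaks of the 6 lists, as bars from 0 with 1 library each. In Hoxc, Hoxb and Hoxd the NSC H3K27me3 bar is higher than the ESC H3K27me3 bar (52.8% against 29.5% in Hoxc), and in Hoxa it is lower (31.4% against 52.9%).

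Several Hoxc genes also differed from their paralogues, the genes of the same number in the other clusters. Hoxa11 and Hoxd11 had the start site in a peak of all 6 lists, and Hoxc11 in neither H3K27me3 list. Hoxa10 and Hoxd10 had H3K27me3 at the start site in NSCs and Hoxc10 did not. Hoxa13 and Hoxd13 had NSC Ring1b there, and Hoxc13 and Hoxb13 did not. In the anterior groups, Hoxc5 and Hoxc6, like Hoxb5 and Hoxb6, had NSC Ring1b at the start site, and Hoxa5 and Hoxa6 had 0% of their bodies under either NSC list. By the start of the gene record, Hoxc4 and Hoxd4 had the start site in no list, whereas Hoxa4 and Hoxb4 had it in ESC Ring1b and Cbx2 peaks. The longest coding transcript of Hoxc4 does start in an ESC Ring1b peak, and other starts of the paralogues are not given here.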

How the data were processed

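Ring1b, Cbx2, Ezh2 and H3K27me3 were profiled by ChIP-seq in J1 ESCs. NSCs were profiled for the first and the last. There was 1 library each, after cross-linking in 1% formaldehyde for 10 min and shearing to 250 bp on average. For Ring1b the study's methods also state an EGS cross-link, which the labels do not mention. The authors deposited the coordinates of each peak on mm9, without a score or count. Per the study's methods, tags were mapped with Bowtie (the submitters' processing notes name BWA), counted in 1 kb windows every 200 bp, set against input under a negative binomial model tuned by eye, and joined where enriched windows were near each other. The 4 inputs were not used here. Depth is unknown, so no interval is given.

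Genes were located with the GENCODE annotation of mm9. A start site is the 5′ end of the gene record, and a covered share is the percent of bases under peaks. Interval arithmetic used Python 3.11.15 and numpy 2.4.6 and was tested on simulated data, and figures were drawn with matplotlib 3.10.9. Named features were the 9 members, non-coding genes between them, the 3 nearest protein-coding genes on each side and paralogues that differed. Promoters printed were those of members whose start-site state differed between cell types, with the first that did not, and some of these sequences are not reported here. The members and lists were chosen with earlier results of these data known. Comparisons of gene cover with all genes were added after the values were seen. Alternatives were other start sites, flanks of 0, 5 or 20 kb, only peaks of 2 kb or more, merging of peaks within 3 kb, peaks with at least 50% of their length in the window, and promoters of 500 bases on either side.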

Additional observations from a re-analysis of the deposited data

How the results depend on the processing

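With 1 library per cell type and target no replicate could be left out. No paired analysis was possible because the labels give no replicate numbers and the comparisons come from no test. The lists carry no score, so no stricter threshold could be set, and depth is unknown. The number of Hoxc start sites in a peak stayed within 1.5 times in all 6 lists under each of the 5 alternatives, with 4 to 8 as reported and from 3 (ESC H3K27me3, peaks at least 2 kb wide) to 9 (ESC Ring1b, longest coding transcript).

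Without a flank the covered share of the window was 75.4% for ESC Ring1b, 51.9% for Cbx2, 32.1% for Ezh2, 34.6% for ESC H3K27me3 and 50.9% for NSC Ring1b. With 20 kb it was 60.4%, 39.4%, 23.9% and 25.7% for the ESC lists in the same order, 41.7% for NSC Ring1b and 48.7% for NSC H3K27me3. With peaks at least 2 kb wide it was 19.3% for Ezh2 and 21.4% for ESC H3K27me3, and bases under all 4 ESC lists came to 12400 bp. With peaks within 3 kb merged it was 38.8% for Ezh2, 43.8% for ESC H3K27me3 and 63.7% for NSC H3K27me3. The widest peaks were then 65800, 32000, 11600 and 30400 bp for the ESC lists and 32200 and 31200 bp for NSC Ring1b and H3K27me3, bases under all 4 ESC lists came to 35200 bp, and those with H3K27me3 in ESCs alone to 12600 bp. Without a flank, bases with Ring1b in NSCs alone came to 1874 bp. With peaks at least 2 kb wide Hoxc ranked 1 among the 4 Hox clusters for NSC H3K27me3. These settings change the window or the peaks by construction.

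Lower Ring1b cover in NSCs held at 9 genes with 5 kb flanks and with wide peaks, at 8 with merged peaks and at 6 by gene body alone, where Hoxc11, Hoxc9 and Hoxc8 were at 100% in both cell types. Higher H3K27me3 cover held at 9 genes with wide peaks and at 7 with 5 kb flanks, merged peaks or the gene body alone. Hoxc11 and Hoxc10 were the exceptions in each of these 3. With 5 kb flanks Hoxc11 was at 35.7% in both cell types and Hoxc10 went from 68.2% to 57.6%, and with merged peaks they went from 51.3% to 41.0% and from 100% to 69.8%.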
